A study of Mus musculus with 10 samples.

Results

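The transcripts described here are those of the mitochondrial genome, the small circular DNA that mitochondria keep apart from the nucleus. They were found in the deposited expression table by name: every row with a gene name that starts with mt-, after names joined by commas were split. The rule took 12 of 46955 rows. Those 12 rows name all 37 mitochondrial genes, that is 13 mRNAs, 2 ribosomal RNAs (rRNAs) and 22 transfer RNAs (tRNAs). The values are FPKM (fragments mapped to a transcript, relative to its length and to the size of the library), given for 10 libraries of total RNA depleted of ribosomal RNA. The study asked how loss of Strap, a WD40-repeat protein gene deleted with zinc finger nucleases in mice, changes splicing and expression in cells that leave the pluripotent state. The groups were Strap-/- (KO) embryoid bodies at day 9 (EBs, aggregates in which embryonic stem cells differentiate) and wild-type (WT) EBs of the same day, E9.0 and E8.0 WT embryos, KO embryonic stem cells (ESCs) and WT ESCs, all of strain C57BL/6. EBs and embryos had 2 libraries in each group and each ESC genotype had 1. ESCs were derived from blastocysts and kept on feeder fibroblasts, EBs were made without the factor LIF and then grown in N2B27 medium with bFGF, and embryos were pooled for each library. The sources do not state whether the libraries of a genotype came from separate ESC lines.

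Mitochondrial DNA is transcribed from both strands into long precursors that span nearly the whole circle. The tRNAs lie between the rRNAs and mRNAs like punctuation, and enzymes that cut out the tRNAs release the other RNAs. The mRNAs encode core subunits of complexes I, III, IV and V of the respiratory chain and ATP synthase, the rRNAs build the mitochondrial ribosome, and every other protein of the organelle comes from nuclear genes.

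Only 1 of the 13 mRNAs, mt-Nd6, had a row of its own. Of the 28 genes of the + strand, all lay in 3 merged rows, and each of the 9 genes of the - strand had its own row. The first merged row spans chrM:1-5016 (GRCm38) and joins 10 genes: both rRNAs (mt-Rnr1, mt-Rnr2), the complex I mRNAs mt-Nd1 and mt-Nd2, and mt-Tf, mt-Tv, mt-Tl1, mt-Ti, mt-Tm and mt-Tw. It is called the rRNA-containing row below. The second spans chrM:5328-13565 and joins 16 genes. They are 3 complex IV mRNAs (mt-Co1, mt-Co2, mt-Co3), both complex V mRNAs (mt-Atp6, mt-Atp8), 4 complex I mRNAs (mt-Nd3, mt-Nd4l, mt-Nd4, mt-Nd5) and 7 tRNAs (mt-Td, mt-Tk, mt-Tg, mt-Tr, mt-Th, mt-Ts2, mt-Tl2). It is called the mt-Co1 to mt-Nd5 row. The third spans chrM:14145-15355 and joins mt-Cytb, the only mitochondrially encoded subunit of complex III, with mt-Tt. A row has a single FPKM per library, so the parts of rRNA, mRNA and tRNA in a merged row cannot be told apart, and no value is given for mt-Co1, mt-Nd1 or any other merged mRNA alone.

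On the + strand the merged rows are parted by 311 bases before mt-Co1 and by 579 bases before mt-Cytb. Within the first merged row, mt-Ti and mt-Tm have 70 bases between them. On the - strand mt-Nd6 and mt-Te touch and have rows of their own. Why rows were merged was not tested. The sequences at the borders show how tightly many of the genes sit, and they are printed for that reason. All are GENCODE M21 transcript sequence of GRCm38, 5′ to 3′. In the first 3 the tRNA is in capitals, with up to 30 bases of its neighbours in lower case. The tRNA mt-Tv (chrM:1025-1093) begins on the base after mt-Rnr1 and ends on the base before mt-Rnr2. The tRNA mt-Tl1 (chrM:2676-2750) parts mt-Rnr2 from mt-Nd1 in the same way, with no base left between tRNA and rRNA. The tRNA mt-Tt (chrM:15289-15355) starts on the base after mt-Cytb.
mt-Tv, + strand: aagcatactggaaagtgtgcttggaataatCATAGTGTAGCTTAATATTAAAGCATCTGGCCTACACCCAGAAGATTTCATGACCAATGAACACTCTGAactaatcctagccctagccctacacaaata
mt-Tl1, + strand: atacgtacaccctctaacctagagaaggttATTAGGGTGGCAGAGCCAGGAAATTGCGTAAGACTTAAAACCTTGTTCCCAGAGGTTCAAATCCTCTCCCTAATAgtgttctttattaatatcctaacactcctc
mt-Tt, + strand: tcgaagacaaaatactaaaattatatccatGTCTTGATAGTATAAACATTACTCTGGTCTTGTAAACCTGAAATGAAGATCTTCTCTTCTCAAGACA

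The annotated mt-Cytb ends 1 base past its last whole codon, as mt-Co3 and mt-Nd4 do, while 10 of the 13 mRNAs end with a complete stop codon. In mitochondria such an ending is known to be completed to a stop codon by polyadenylation. The annotated genes of mRNAs themselves overlap at 2 places of more than 2 bases on the + strand, printed next with the shared bases in capitals. The end of mt-Atp8 and the start of mt-Atp6 share 43 bases (chrM:7927-7969), which begin with the ATG of mt-Atp6 and end with the TAA of mt-Atp8. The end of mt-Nd4l and the start of mt-Nd4 share 7 bases (chrM:10167-10173). Reads in these stretches fall within both annotated genes.
mt-Atp8 and mt-Atp6, + strand: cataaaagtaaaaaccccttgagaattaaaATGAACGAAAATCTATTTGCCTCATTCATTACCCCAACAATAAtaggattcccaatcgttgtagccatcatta
mt-Nd4l and mt-Nd4, + strand: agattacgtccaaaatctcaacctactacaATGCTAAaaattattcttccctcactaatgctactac

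Between strands, mt-Nd5 on the + strand and mt-Nd6 on the - strand share 14 bases (chrM:13552-13565), in capitals in both of the next lines. The reads were counted by strand, so these bases do not mix the 2 genes in a strand-specific library. The mRNA mt-Nd6 (chrM:13552-14070, 519 bases) is also the odd one in base composition. It has 28.1% G and 5.97% C, against 5.88% to 16.1% G and 22.1% to 29.97% C in the 12 mRNAs of the + strand.
mt-Nd5 end, + strand: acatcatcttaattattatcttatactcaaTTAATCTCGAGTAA
mt-Nd6 end, - strand: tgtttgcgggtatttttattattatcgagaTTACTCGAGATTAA

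The 8 tRNAs of the - strand (mt-Tq, mt-Ta, mt-Tn, mt-Tc, mt-Ty, mt-Ts1, mt-Te and mt-Tp) were listed at 0 in all 10 libraries. They are 66 to 71 bases long. The same held for 771 of 778 other rows with a single locus of at most 75 bases (99.1%), against 33.0% of 43039 rows with a longer locus, so the zeros say nothing of these tRNAs in particular. Of the 22 tRNAs the other 14 lie in merged rows. The tRNAs therefore have no values of their own, and 2 of the rows listed at 0 are printed to show what the table does not measure. Their capitals mark the 3 bases by which mt-Tq overlaps mt-Ti (chrM:3772-3774) and by which mt-Ts1 overlaps mt-Co1 (chrM:6870-6872) on the opposite strand.
mt-Tq, - strand: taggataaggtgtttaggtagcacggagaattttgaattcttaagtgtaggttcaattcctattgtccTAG
mt-Ts1, - strand: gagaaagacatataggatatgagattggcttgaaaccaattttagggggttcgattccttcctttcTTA

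The whole table gives the setting for these values. No counts were used, so the depth of the libraries is unknown. FPKM summed to between 521660 and 735314 in a library, and 12881 to 13886 rows reached FPKM of 1. Rows that resemble nuclear ribosomal RNA took 0.031% to 14.6% of FPKM, with the highest share in the first WT EB library. Between the 2 libraries of a group the median row differed on the log2 scale by 0.27 in KO EBs, 0.25 in WT EBs, 0.11 at E9.0 and 0.10 at E8.0. Strap had 8.48 and 11.3 FPKM in KO EBs, against 49.7 and 47.2 FPKM in WT EBs, and 14.5 FPKM in KO ESCs, against 68.7 FPKM in WT ESCs. Cell type markers checked the labels. The summed FPKM of 5 pluripotency markers was 1282 in KO ESCs and 1283 in WT ESCs, against 215 to 702 in EBs and 26.2 to 31.3 in embryos, and the summed FPKM of 4 fibroblast markers was 256 in KO ESCs and 271 in WT ESCs, which were grown on feeders, against 11.4 to 32.9 in EBs. For E8.0 the table's headers and the labels name different stages, the headers a later one, and the labels were followed. The prefixes of the headers differ between the embryo stages, and between EBs and ESCs. Within EBs they follow the replicate number and not the genotype. What the prefixes stand for is not stated. Whatever they mark cannot be told apart from stage, or from the difference between EBs and ESCs.

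Mitochondrial rows were among the most abundant in the table. The rRNA-containing row ranked between 1 and 9 by FPKM in the 7 libraries where it was above 0. The mt-Co1 to mt-Nd5 row ranked between 6 and 48 over all 10 libraries, the mt-Cytb row between 55 and 268, and mt-Nd6 between 320 and 1270. The order of FPKM was the same in the 7 libraries with a value in all of these rows except WT ESCs. There the mt-Co1 to mt-Nd5 row had 5468 FPKM and the rRNA-containing row 5052 FPKM. The mt-Nd6 mRNA was the lowest of the 4 rows in those 7 libraries, and over all 10 libraries it was at 2.53% to 7.98% of the mt-Co1 to mt-Nd5 row.

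**Figure D1:**
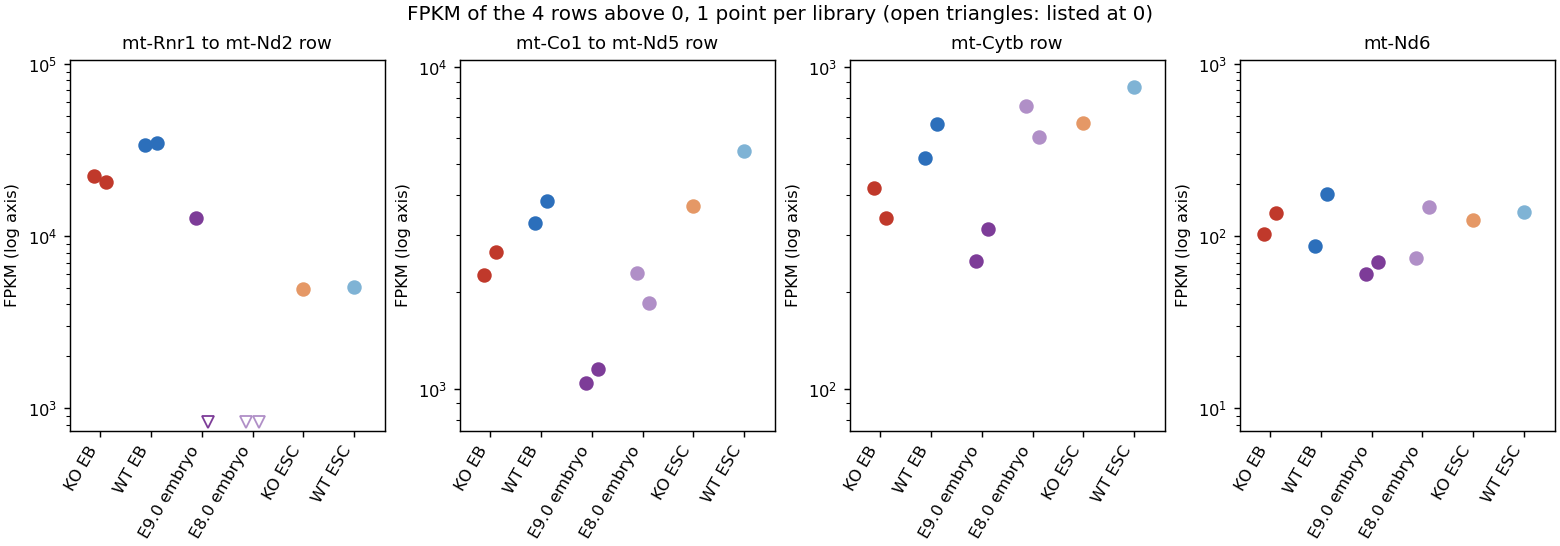
FPKM (vertical axes, logarithmic and with a scale of their own in each panel) of the 4 mitochondrial rows above 0, with 1 point per library in 6 groups: KO EB, WT EB, E9.0 embryo, E8.0 embryo, KO ESC and WT ESC. Open triangles at the foot of the first panel are libraries listed at 0, both E8.0 libraries and the second E9.0 library. The 2 E9.0 libraries are the lowest points for the mt-Co1 to mt-Nd5 row (1045 and 1147 FPKM) and the mt-Cytb row (249.5 and 313.8 FPKM).

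The rRNA-containing row varied more between libraries than any of the others. It had 22296 and 20471 FPKM in KO EBs, and 33607 and 34691 FPKM in WT EBs. In embryos it had 12664.5 FPKM in the first E9.0 library and was listed at 0 in the second E9.0 library and in both E8.0 libraries. In the KO ESC library it had 4927 FPKM, and in the WT ESC library 5052 FPKM. A value of 0 in embryos whose next row along the genome exceeds 1000 FPKM can be a failed estimate, so no mean and no fold change involving embryos is given for this row. It was not alone in being listed at 0. Of 114 rows with FPKM of at least 1000 in some library, 12 were listed at 0 in another, this row included. Which of these zeros are failed estimates was not tested. The 12 included 4 protein-coding genes with a row of their own, among them the embryonic globins (Hba-x, Hbb-y and Hbb-bh1), at 0 in both ESC libraries. Also among the 12 were Gm42418, at 0 in 3 libraries and at least 2458 FPKM in the others, and Gm26917, at 0 in 7 libraries and at least 12572 FPKM in the others, both counted here with the rows that resemble ribosomal RNA. The labels and the methods name different kits for ribosomal RNA depletion, and how the kits act on mt-Rnr1 and mt-Rnr2 was not tested.

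In 3 of the 4 rows both KO EB libraries had lower FPKM than both WT EB libraries, and none of these differences passed the test. The mt-Co1 to mt-Nd5 row had 2263 and 2655 FPKM in KO EBs, against 3272.5 and 3841 FPKM in WT EBs. The higher KO library lay below the lower WT library. The mt-Cytb row had 419.7 and 339.7 FPKM in KO EBs, against 519 and 665 FPKM in WT EBs. The rRNA-containing row, given above, was likewise lower in both KO libraries, with 21383 ± 1290.3 FPKM in KO EBs and 34149 ± 767 FPKM in WT EBs (SD, n = 2 each). For mt-Nd6 the groups overlapped, with 103 and 136 FPKM in KO EBs, against 87.3 and 175 FPKM in WT EBs. Non-overlap is common with 2 libraries in a group. It held for 20.9% of all 15160 rows tested in the lower direction and for 25.8% in the higher direction.

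The limma test (a linear model across all rows with moderated variance) was run on log2(FPKM + 1), so that every log2 fold change below is on that scale. With 2 libraries in a group, its p-values, adjusted by Benjamini-Hochberg over all rows, rest only on how much these cultures and pools vary. Of the 4 rows, 0 were called in EBs, where 3 of 15160 rows (0.0198%) were called higher and 18 (0.119%) lower at an adjusted p under 0.05. In this main fit 0 of the 4 mitochondrial rows and 2094 of all rows had an unadjusted p under 0.05. The log2 fold change of the mt-Co1 to mt-Nd5 row was -0.53 (SE 0.304, limma adjusted p = 0.472) and that of the mt-Cytb row -0.64 (SE 0.335, limma adjusted p = 0.437). For mt-Nd6 it was -0.06 (SE 0.679, limma adjusted p = 0.983), and the sign turned without the first KO EB library or without the second WT EB library. The rRNA-containing row had -0.68 with an SE of 8.31, which takes in the embryo libraries listed at 0 through the shared variance. With those zeros entered as missing its limma adjusted p was 0.592. The median over all rows was 0.01.

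**Figure D2:**
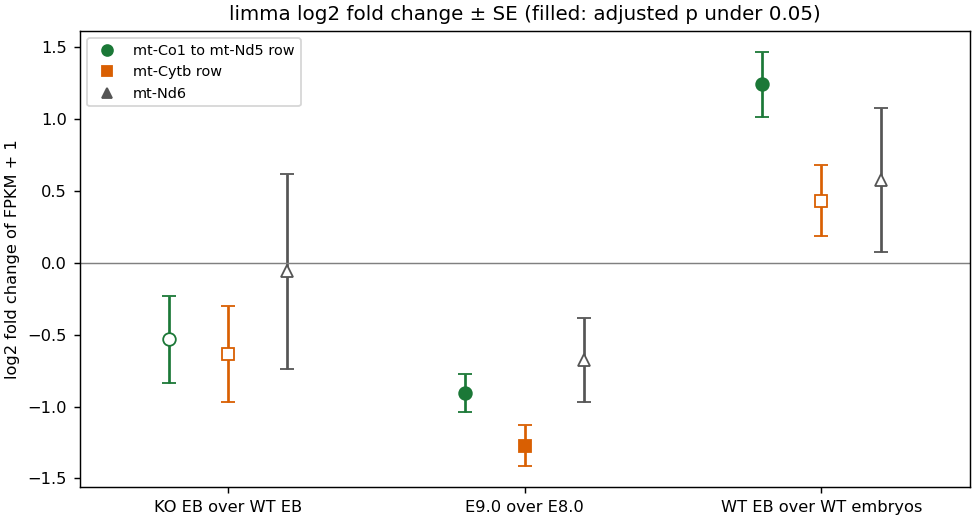
Log2 fold change of FPKM + 1 from limma (vertical axis) for the mt-Co1 to mt-Nd5 row (circles), the mt-Cytb row (squares) and mt-Nd6 (triangles) in 3 comparisons, with bars of 1 SE. Filled symbols passed an adjusted p of 0.05: the mt-Co1 to mt-Nd5 row (-0.91) and the mt-Cytb row (-1.27) at E9.0 over E8.0, and the mt-Co1 to mt-Nd5 row (1.24) in WT EBs over WT embryos.

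Sums of several cell type markers also differed between the genotypes in the EB libraries. The summed FPKM of 5 cardiac muscle markers was 7.04 and 5.78 in KO EBs, against 165 and 61.7 in WT EBs. That of the pluripotency markers was 488 and 702 in KO EBs, against 215 and 467 in WT EBs. The summed FPKM of 4 visceral endoderm and yolk sac markers was 96.7 and 71.4 in KO EBs, against 199 and 188 in WT EBs. None of these sums overlapped between the genotypes, nor did those of the fibroblast markers (16.6 and 11.4 in KO EBs, against 32.9 and 22.6 in WT EBs) and of 3 neuron markers (42.2 and 53.9 in KO EBs, against 20.5 and 18.9 in WT EBs). The neuron and pluripotency sums were higher in KO EBs and the other 3 lower. Of the pluripotency markers only Pou5f1 did not overlap, with 233 and 316 FPKM in KO EBs, against 83.3 and 199 FPKM in WT EBs. Nanog, Sox2, Zfp42 and Esrrb overlapped, as did Afp among the visceral endoderm and yolk sac markers. Most of the neuron sum was Stmn2, with 41.0 and 51.5 FPKM in KO EBs, against 17.4 and 17.0 FPKM in WT EBs. Stmn2 was also high in ESCs, with 44.2 FPKM in KO ESCs and 61.3 FPKM in WT ESCs. Of the other neuron markers, Dcx was lower in both KO EB libraries than in both WT EB libraries, and Elavl3 overlapped. The higher neuron sum thus rests on Stmn2 and does not show more neurons in KO EBs. Among the fibroblast markers Postn differed most, with 1.76 and 0.68 FPKM in KO EBs, against 15.5 and 7.58 FPKM in WT EBs. Col1a1 was also lower in both KO EB libraries, while Col1a2 and Thy1 overlapped. The sums of 4 neuroectoderm markers overlapped, at 35.6 and 8.71 in KO EBs, against 33.2 and 14.0 in WT EBs. Of all rows, 20.9% were lower and 25.8% higher in KO EBs without overlap. Among the markers of these lists the cardiac Tnnt2 and Tnni1 passed (limma adjusted p = 0.0241 and 0.0147) and the others did not. Heart muscle is rich in mitochondria, and the part of any of these cells in the mitochondrial values was not tested. In bulk samples fewer cells of a type and less RNA per cell cannot be told apart. Together the mt-Co1 to mt-Nd5 row, the mt-Cytb row and mt-Nd6 took 0.379% and 0.466% of all FPKM in KO EBs, against 0.590% and 0.787% in WT EBs.

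The nuclear genes of the same complexes showed no called change in EBs. Of 80 listed nuclear subunits of complexes I to V, 75 had a row of their own that was tested, and 0 rose and 0 fell (limma, adjusted over all rows), with 9 at an unadjusted p under 0.05. Their median log2 fold change was 0.16, against 0.01 for all rows, and 53 of the 75 values were above 0. The values with the lowest p were those of Uqcrc1, a core subunit of complex III, with a log2 fold change of 0.63 (SE 0.131, limma adjusted p = 0.171), and of Atp5g1, a subunit of the ATP synthase ring, with 0.65 (SE 0.195, limma adjusted p = 0.246). Uqcrc1 had 130.4 and 132 FPKM in KO EBs, against 79.0 and 90.9 FPKM in WT EBs, so this nuclear subunit had the higher level in KO EBs and the mt-Cytb row the lower. When FPKM was rescaled to the rows other than mitochondrial and ribosomal-RNA-like ones, the median of the 75 subunits was -0.10 and that of all rows -0.22.

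Factors that maintain and express mitochondrial DNA were also without a call in EBs. Of 15 tested genes for its transcription and replication, 19 for RNA processing and stability and 6 regulators of biogenesis, 0 rose and 0 fell (limma), and 0, 1 and 0 had an unadjusted p under 0.05. Tfam, which packages mitochondrial DNA and starts its transcription, had 24.5 and 28.3 FPKM in KO EBs, against 21.2 and 25.9 FPKM in WT EBs (limma adjusted p = 0.716). Polrmt, the mitochondrial RNA polymerase, had 11.5 and 11.6 FPKM in KO EBs, against 7.14 and 10.1 FPKM in WT EBs (limma adjusted p = 0.655). Lrpprc, which stabilises mitochondrial mRNAs, had 38.3 and 44.0 FPKM in KO EBs, against 34.7 and 41.9 FPKM in WT EBs (limma adjusted p = 0.808). The coactivator gene Ppargc1a was below 0.5 FPKM in all 4 EB libraries. Tomm40, the channel of the import complex of the outer membrane, had 58.1 and 61.5 FPKM in KO EBs, against 33.5 and 40.5 FPKM in WT EBs (limma adjusted p = 0.171). Both KO libraries were above both WT libraries for Tomm40 and Polrmt, as for 25.8% of all rows, while Tfam and Lrpprc overlapped. Of 70 proteins of the mitochondrial ribosome, 0 rose and 0 fell (limma, 11 at an unadjusted p under 0.05), with a median of 0.21. In the list of 11 genes used as markers of mitochondrial mass, among them Tomm40, 0 rose and 0 fell (limma, 2 at an unadjusted p under 0.05), with a median of 0.25. The medians were above 0 where the 4 mitochondrial rows were below it. Under the same rescaling the medians turned to -0.07 for the ribosome and -0.04 for the mass markers. That rescaling also moved the median of all rows to -0.22 and the mt-Co1 to mt-Nd5 row to -0.82.

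In ESCs, with 1 library per genotype, the difference has no replicate check and no test was made. The mt-Co1 to mt-Nd5 row had 3695.5 FPKM in KO ESCs, against 5468 FPKM in WT ESCs, a log2 ratio of -0.57. Of 9829 rows that reached FPKM of 5 in 1 of the libraries or both, 6.84% had a ratio as low or lower. The mt-Cytb row had 668 FPKM in KO ESCs, against 863 FPKM in WT ESCs (log2 ratio -0.37, with 14.4% of rows as low or lower). For mt-Nd6 the values were 124 FPKM in KO ESCs and 138 FPKM in WT ESCs (log2 ratio -0.15, with 31.9% of rows as low or lower). For the rRNA-containing row the log2 ratio was -0.04, with 45.9% of rows as low or lower. All 4 ratios were below 0, and the median ratio over all rows was -0.02.

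The rRNA-containing row differed most between EBs and ESCs, among the rows above 0. The log2 ratio of the mean of 2 EB libraries to the ESC library was 2.12 in KO cells and 2.76 in WT cells. The other rows were lower in EBs than in ESCs in both genotypes: the mt-Co1 to mt-Nd5 row had -0.59 in KO cells and -0.62 in WT cells, the mt-Cytb row -0.82 and -0.55, and mt-Nd6 -0.07 and -0.16. No test was made, since each ESC group has 1 library. The ratio of the rRNA-containing row to the mt-Co1 to mt-Nd5 row was 9.85 and 7.71 in KO EBs, 10.3 and 9.03 in WT EBs, 12.1 in the first E9.0 library, 1.33 in KO ESCs and 0.92 in WT ESCs. The fibroblast markers given above were higher in the ESC libraries, and their part in these ratios was not tested. The header prefixes also differ between EBs and ESCs, and what they mark cannot be told apart from that difference.

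At E9.0 the mitochondrial mRNA rows were lower than at E8.0, an interval in which the embryo forms its organs and grows quickly. The mt-Co1 to mt-Nd5 row had 1045 and 1147 FPKM at E9.0, against 2288 and 1842 FPKM at E8.0. Means were 1096 ± 72.6 FPKM at E9.0 and 2065 ± 316 FPKM at E8.0 (SD, n = 2 each). The log2 fold change was -0.91 (SE 0.130, limma adjusted p = 0.00345), and the E9.0 mean FPKM was 53.1% of the E8.0 mean. The mt-Cytb row had 249.5 and 313.8 FPKM at E9.0, against 756 and 607 FPKM at E8.0. Its log2 fold change was -1.27 (SE 0.143, limma adjusted p = 0.00146), and the E9.0 mean was 41.4% of the E8.0 mean. For mt-Nd6 the groups did not overlap, with 60.1 and 70.5 FPKM at E9.0, against 74.5 and 147 FPKM at E8.0. At a log2 fold change of -0.68 (SE 0.290) its limma adjusted p of 0.129 missed the threshold. The value rests on single libraries: it was -1.16 without the first E8.0 library (limma adjusted p = 0.0241) and -0.19 without the second (limma adjusted p = 0.576).

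Of the 3 rows with values in both stages, 2 fell and 0 rose, where 12% of all 15160 rows fell and 13.7% rose. All 3 were lower in both E9.0 libraries than in either E8.0 library, which held for 33% of all rows, while 33.2% were higher in both. The call of the mt-Cytb row held in all 17 alternative settings. That of the mt-Co1 to mt-Nd5 row held in 16 of 17, and its limma adjusted p was 0.0537 when EBs and embryos were given the same variance. Among all rows, 1.13% had a log2 fold change as low as that of the mt-Cytb row or lower, and 2.40% one as low as that of the mt-Co1 to mt-Nd5 row. Rescaling to rows other than mitochondrial and ribosomal-RNA-like ones changed the balance of all calls to 1427 higher and 2479 lower, against 2084 higher and 1826 lower in the main test, without ending either mitochondrial call.

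Markers of several cell types moved between the stages too. The summed FPKM of 4 erythroid markers, led by the embryonic globins, was 11226 and 7293 at E9.0, against 877 and 2059 at E8.0. That of the visceral endoderm and yolk sac markers was 33.8 and 15.8 at E9.0, against 362 and 616 at E8.0. Neither sum overlapped between the stages. Fibroblast markers summed to 207 and 141 at E9.0, against 33.3 and 56.8 at E8.0, and neuroectoderm markers to 87.4 and 92.3 at E9.0, against 54.1 and 53.5 at E8.0. Among the fibroblast markers Col1a1, Col1a2 and Postn rose and Thy1 fell (-0.75, limma adjusted p = 0.0104). Of the neuroectoderm markers only Nes passed (1.63, limma adjusted p = 0.00117), while Sox1, Pax6 and Sox3 did not. Cardiac markers summed to 557 and 458 at E9.0, against 567 and 553 at E8.0, and overlapped. Of the 5 cardiac markers Actc1 had the highest FPKM in these libraries, and Tnnt2 (-0.60, limma adjusted p = 0.0144) and Myl7 (-0.64, limma adjusted p = 0.0315) fell. The part of these cells in the mitochondrial values was not tested. The header prefixes also differ between the stages, and what they mark cannot be told apart from stage.

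Among nuclear subunits of the respiratory chain, more rose than fell at E9.0 relative to E8.0. Of the 75 tested, 23 rose (30.7%, against 13.7% of all rows), 4 fell (5.33%, against 12% of all rows) and 48 did not pass. Their median log2 fold change was 0.13, against 0.00 for all rows. In complex I, 10 of 34 rose and 0 fell. In complex II, which has no mitochondrially encoded subunit, 2 of 4 rose, Sdhc (0.46) and Sdhb (0.40). In complex III, 2 of 9 rose and 1 fell. In complex IV, 4 of 14 rose and 3 fell, and in complex V, 5 of 14 rose and 0 fell. With the same variance for EBs and embryos 1 of the 75 rose and 0 fell, in a fit of the embryo libraries alone 12 rose and 0 fell, and without the first E8.0 library 9 rose and 0 fell. The median stayed above 0 in all alternatives, and was 0.03 after rescaling to rows other than mitochondrial and ribosomal-RNA-like ones. That of all rows was then -0.07.

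Members of each complex are given next. Ndufv1, a complex I subunit that takes electrons from NADH, had 63.6 and 61.7 FPKM at E9.0, against 42.8 and 43.7 FPKM at E8.0 (log2 fold change 0.52, SE 0.063, limma adjusted p = 0.00182). From the same complex, mt-Nd6 had the values given above, which did not pass. The complex I mRNAs mt-Nd3, mt-Nd4l, mt-Nd4 and mt-Nd5 lie in the mt-Co1 to mt-Nd5 row, which fell, and have no values of their own. Uqcrfs1, the iron-sulfur protein of complex III, had 92.6 and 87.6 FPKM at E9.0, against 53.7 and 62.9 FPKM at E8.0 (0.62, limma adjusted p = 0.0026). Uqcrc1, a core subunit of the same complex, rose by 0.39 (limma adjusted p = 0.0035). In complex III the mt-Cytb row thus fell while these nuclear subunits rose. Uqcrb, another subunit of it, fell, with 87.2 and 75.6 FPKM at E9.0, against 95.2 and 111 FPKM at E8.0 (-0.34, limma adjusted p = 0.0429).

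Complex IV held both directions. Cox6a1 had 195 and 196 FPKM at E9.0, against 86.5 and 115 FPKM at E8.0 (0.96, limma adjusted p = 0.0044). Cox6a2, the heart and skeletal muscle form of that subunit, was low, at 2.501 and 2.94 FPKM at E9.0, against 1.15 and 0.88 FPKM at E8.0 (0.88, limma adjusted p = 0.0057), and Cox6b2, the testis form of its subunit, rose by 0.68 (limma adjusted p = 0.0068). Ndufa4, a subunit of complex IV despite its name, fell by 0.28 (limma adjusted p = 0.023). In complex V, Atp5e (0.59), Atp5h (0.52), Atp5g3 (0.57) and Atp5a1 (0.42) rose, with limma adjusted p between 0.0026 and 0.0125. The mt-Co1 to mt-Nd5 row, which holds the mitochondrial mRNAs of complexes IV and V and some of complex I, fell by 0.91.

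**Figure D3:**
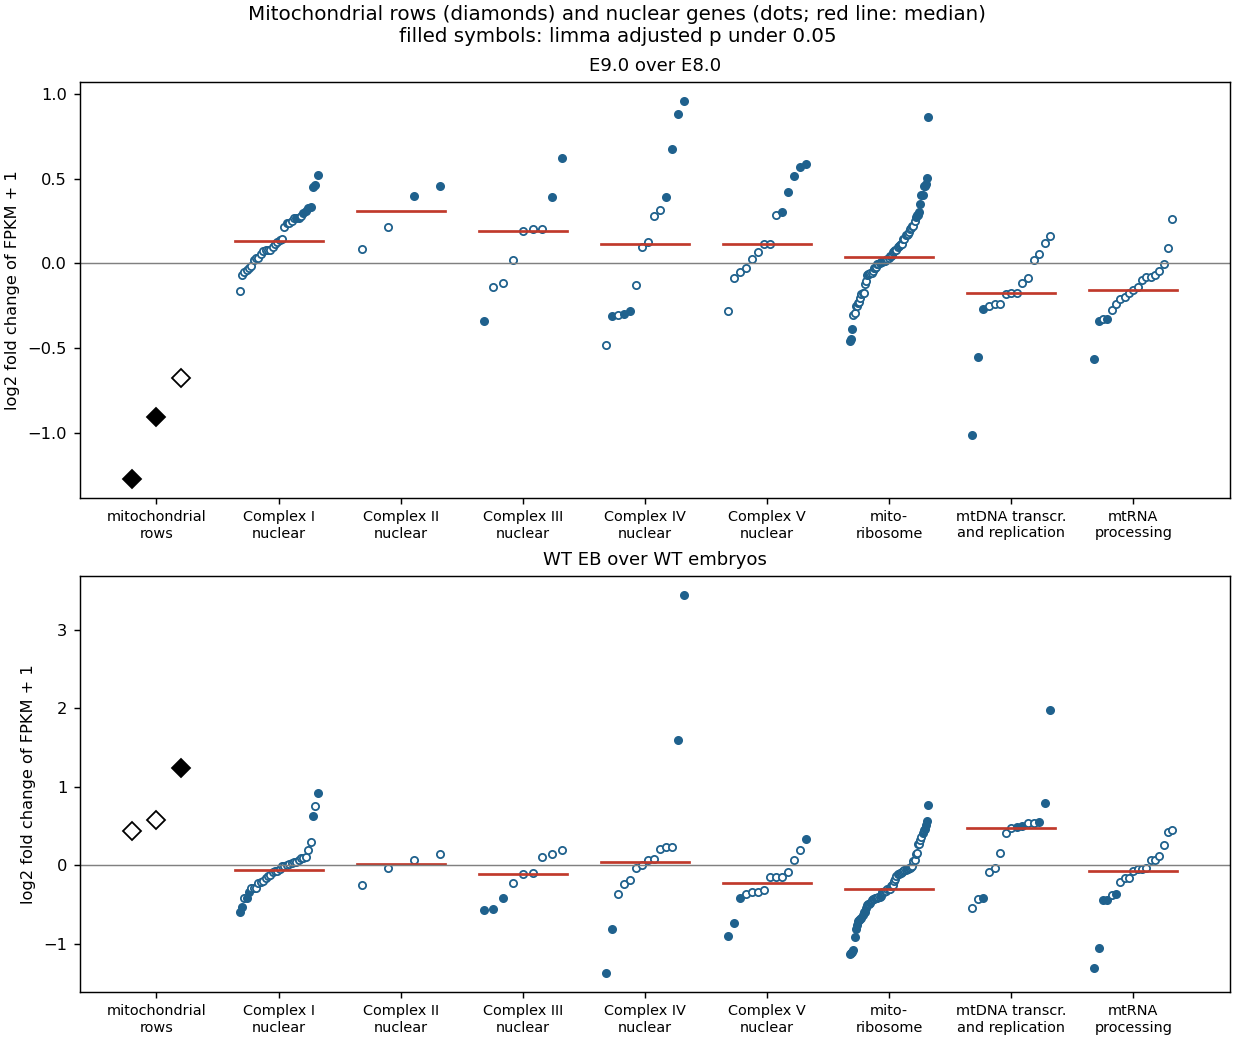
Log2 fold change of FPKM + 1 from limma (vertical axes) for the 3 mitochondrial rows with values in all 8 EB and embryo libraries (diamonds) and for nuclear genes of the respiratory complexes, the mitochondrial ribosome and mitochondrial DNA and RNA factors (dots, 1 per gene, with the median as a red line). The upper panel is E9.0 over E8.0 and the lower panel WT EBs over WT embryos. Filled symbols passed an adjusted p of 0.05. In the upper panel the 3 diamonds lie between -1.27 and -0.68 and the medians of complexes I to V between 0.11 and 0.31.

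Among genes for mitochondrial DNA and RNA few were called at E9.0. Of 15 tested genes for transcription and replication, 0 rose and 3 fell (20%), and of 19 for RNA processing and stability, 0 rose and 3 fell (15.8%), where 12% of all rows fell and 13.7% rose. The shares that fell are near that background. The medians were -0.17 and -0.16, and stayed below 0 in every alternative run. Polg, the catalytic subunit of the mitochondrial DNA polymerase, had 24.0 and 28.3 FPKM at E9.0, against 52.6 and 54.4 FPKM at E8.0 (-1.01, SE 0.092, limma adjusted p = 0.0007). Mgme1, a nuclease of mitochondrial DNA replication, fell by 0.55 (limma adjusted p = 0.0083), and Mterf3, known as a repressor of mitochondrial transcription, fell by 0.27 (limma adjusted p = 0.0407). With the same variance for EBs and embryos 1 of the DNA list and 0 of the RNA list fell. In the DNA list 1 fell without the first E8.0 library, and in the RNA list 1 fell without that library, and likewise without the second E8.0 library or when either WT EB library was left out. Grsf1, an RNA-binding protein of the mitochondrial RNA granules, fell by 0.56 (limma adjusted p = 0.0043). Slirp, the partner of Lrpprc in stabilising mitochondrial mRNAs, fell by 0.33 (limma adjusted p = 0.0324). The third called member of the RNA list, 1110008L16Rik, fell by 0.34 (limma adjusted p = 0.0366).

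The 4 factors named for their central roles did not pass between the stages. Tfam had 29.1 and 28.8 FPKM at E9.0, against 35.8 and 33.0 FPKM at E8.0 (-0.24, limma adjusted p = 0.0521). Polrmt had 10.0 and 14.4 FPKM at E9.0, against 13.7 and 13.8 FPKM at E8.0 (limma adjusted p = 0.421). Lrpprc had 42.8 and 41.7 FPKM at E9.0, against 42.9 and 44.2 FPKM at E8.0 (limma adjusted p = 0.665). For these 3 genes the stages overlapped in Polrmt only, where 33% of all rows were lower at E9.0 without overlap. Ppargc1a had 0.98 and 1.048 FPKM at E9.0, against 0.73 and 1.104 FPKM at E8.0 (limma adjusted p = 0.678). Among the 6 biogenesis regulators the transcription factors Nrf1 (-0.26, limma adjusted p = 0.0207) and Yy1 (-0.22, limma adjusted p = 0.0307) passed, against 12% of all rows called lower. The list had 0 calls without the first E8.0 library, without either E9.0 library, in the embryo libraries alone or with the same variance for EBs and embryos, and 1 without the second E8.0 library.

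Of 70 mitochondrial ribosomal proteins, 11 rose (15.7%, against 13.7% of all rows) and 4 fell at E9.0. Their median was 0.04, or -0.06 after rescaling to rows other than mitochondrial and ribosomal-RNA-like ones, and without the first E8.0 library 3 rose and 2 fell. The same rescaling moved the median of all rows to -0.07. Mrpl34 had 69.1 and 66.1 FPKM at E9.0, against 35.2 and 38.4 FPKM at E8.0 (0.86, limma adjusted p = 0.0005). Mrpl45 fell by 0.46 (limma adjusted p = 0.004). Of the 11 markers of mitochondrial mass, 1 rose and 1 fell (9.09% each, against 13.7% and 12% of all rows). Cs, which encodes citrate synthase, rose by 0.35 (limma adjusted p = 0.0057), and Hspd1, a chaperonin of the matrix, fell by 0.34 (limma adjusted p = 0.008). The rise was not called without the first E8.0 library, nor the fall without the second, and neither was with the same variance for EBs and embryos.

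WT EBs had a higher mt-Co1 to mt-Nd5 row than WT embryos. It had 3272.5 and 3841 FPKM in WT EBs, against 1045, 1147, 2288 and 1842 FPKM in embryos. Both EB libraries were above all 4 embryo libraries, as was the case for 34.4% of all rows, while 29.6% lay below. The log2 fold change was 1.24 (SE 0.225, limma adjusted p = 0.00506), where 23.9% of all rows were called higher and 20.3% lower. Without the second WT EB library it was 1.13 with a limma adjusted p of 0.102. Of the 3 rows with values, 1 rose and 0 fell. The mt-Cytb row had 519 and 665 FPKM in WT EBs, above both E9.0 libraries and overlapping with the E8.0 libraries, and a log2 fold change of 0.43 (SE 0.247, limma adjusted p = 0.190). For mt-Nd6 it was 0.58 (SE 0.502, limma adjusted p = 0.376), with groups that overlapped. Both values moved with the WT EB library left out: without the first they were 0.61 and 1.07, and without the second 0.25 and 0.08. The contrast sets cultures against whole embryos of a different age and cell makeup, and these cannot be told apart. It shares its WT EB libraries with the genotype comparison and its embryo libraries with the stage comparison.

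The ratio between mitochondrial mRNA rows also separated cultured cells from embryos. The ratio of the mt-Co1 to mt-Nd5 row to the mt-Cytb row was 5.39 and 7.82 in KO EBs and 6.30 and 5.78 in WT EBs. It was 4.19 and 3.66 at E9.0, against 3.03 and 3.04 at E8.0. In KO ESCs it was 5.53 and in WT ESCs 6.33. All 6 libraries of cultured cells were above all 4 embryo libraries. Such a ratio compares rows within a library, so the scaling of the library cancels. On the log2 scale WT EBs exceeded WT embryos by 0.81 (exact permutation test, two-sided, p = 0.0667, n = 2 and 4), which is the smallest p this design can give, and the Benjamini-Hochberg value over the 7 ratio tests was 0.467. E9.0 exceeded E8.0 by 0.37 (exact permutation p = 0.333, the smallest that 2 against 2 libraries allow). KO EBs and WT EBs overlapped (log2 difference 0.11, exact permutation p = 1.0).

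The share of mt-Nd6 compares the strands. Relative to the mt-Co1 to mt-Nd5 row, mt-Nd6 was at 4.55% and 5.13% in KO EBs, against 2.67% and 4.56% in WT EBs. It was at 5.76% and 6.14% at E9.0, against 3.26% and 7.98% at E8.0, and at 3.36% in KO ESCs, against 2.53% in WT ESCs. The E8.0 libraries lay on both sides of the E9.0 libraries. The first KO EB library and the second WT EB library were nearly equal, and no difference in this share passed (exact permutation p between 0.267 and 1.0 in the 3 comparisons, where the smallest possible p is 0.333 for 2 against 2 libraries and 0.0667 for 2 against 4). The 2 libraries of a group differed more in mt-Nd6 than in the other rows in WT EBs and at E8.0, by 0.99 and 0.97 on the log2 scale.

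**Figure D4:**
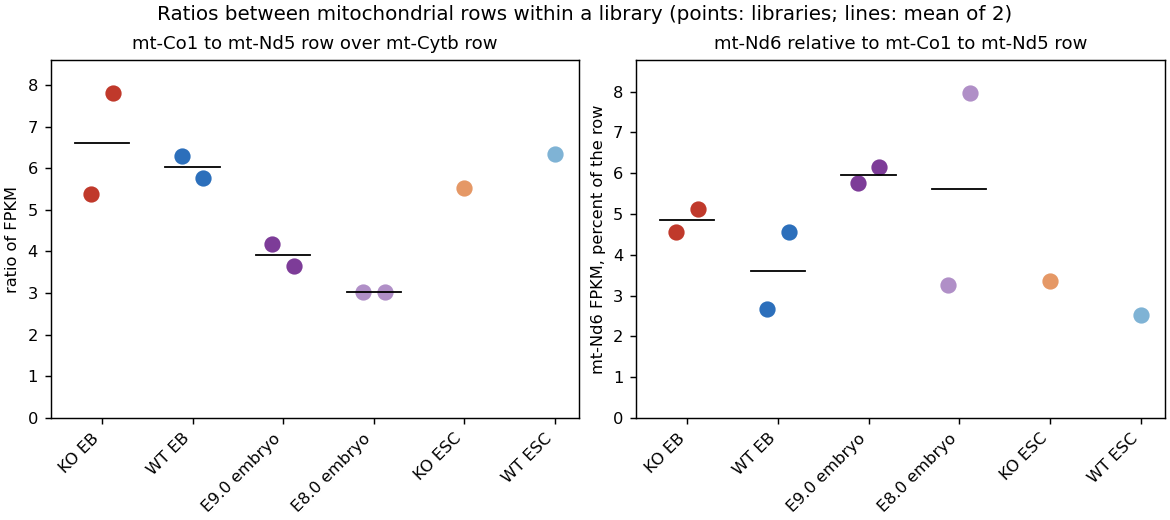
Ratios between mitochondrial rows within each library, on axes that start at 0, for KO EB, WT EB, E9.0 embryo, E8.0 embryo, KO ESC and WT ESC, with 1 point per library and a line at the mean of groups with 2 libraries. Left, the mt-Co1 to mt-Nd5 row over the mt-Cytb row, where the 6 libraries of cultured cells lie between 5.39 and 7.82 and the 4 embryo libraries between 3.03 and 4.19. Right, mt-Nd6 as a percent of the mt-Co1 to mt-Nd5 row, where the 2 E8.0 points (3.26% and 7.98%) enclose the 2 E9.0 points.

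Against embryos, nuclear mitochondrial genes in WT EBs were mixed. Of the 75 respiratory subunits, 5 rose (6.67%, against 23.9% of all rows) and 12 fell (16%, against 20.3% of all rows), with a median of -0.09. Of them 3 rose and 2 fell without the first WT EB library and 1 and 1 without the second. Quantile normalization turned the median to 0.05. The largest rise was that of Cox6b2, with 76.0 and 79.5 FPKM in WT EBs, against 4.26 to 9.15 FPKM in embryos (3.44, SE 0.201, limma adjusted p = 0.0001). The complex I subunits Ndufa7 (0.63) and Ndufa6 (0.92) rose, and Atp5g1 (-0.90) and Uqcrc1 (-0.42) fell. Of 70 mitochondrial ribosomal proteins, 5 rose and 22 fell (31.4%, against 20.3% of all rows), with a median of -0.30, and 5 fell without the first and 3 without the second WT EB library. Mrpl12, which had 42.98 and 36.7 FPKM in WT EBs, against 83.4 to 91.6 FPKM in embryos, was the first of them by p (-1.13, limma adjusted p = 0.0009). Of 11 mass markers, 2 rose (18.2%) and 6 fell (54.5%; 2 when either WT EB library was left out), among them Tomm40 (-1.102) and Hspd1 (-1.01).

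Among factors of mitochondrial DNA, 5 of 15 rose (33.3%, against 23.9% of all rows) and 1 fell (6.67%, against 20.3%) in WT EBs relative to embryos, and 1 rose when either WT EB library was left out. Primpol, a primase and polymerase, had 18.1 and 26.9 FPKM in WT EBs, against 4.23 to 5.54 FPKM in embryos (1.97, SE 0.195, limma adjusted p = 0.0006). Polg2, the accessory subunit of the DNA polymerase (0.79), and Ssbp1, the single-strand binding protein (0.49), also rose, while Tfam fell by 0.41 (limma adjusted p = 0.0341). Polrmt (-0.54, limma adjusted p = 0.128), Lrpprc (-0.16, limma adjusted p = 0.267) and Ppargc1a (-0.51, limma adjusted p = 0.081) did not pass. Of 19 RNA processing genes, 0 rose and 5 fell (26.3%, near the 20.3% of all rows), with 2 without the first and 1 without the second WT EB library. Elac2, which cuts the 3′ end of tRNAs out of precursors, had 9.55 and 11.2 FPKM in WT EBs, against 24.0 to 29.2 FPKM in embryos (-1.31, SE 0.145, limma adjusted p = 0.0009). Hsd17b10, a subunit of the enzyme that cuts the 5′ end, fell by 0.45 (limma adjusted p = 0.015), and Rexo2, an RNA exonuclease, fell by 1.048 (limma adjusted p = 0.006). Whether uncut precursors add to the merged rows was not tested.

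Nuclear copies of mitochondrial DNA can take reads from the mitochondrial genes. Of the annotated nuclear transcripts, those of 13 genes shared at least 50 stretches of 31 bases with mitochondrial transcripts on the same strand, and they lay in 12 rows of the table. In 6 of these rows over 90% of such stretches were shared. Summed over the 12 rows FPKM was 8.14 and 5.77 in KO EBs, against 8.56 and 10.1 in WT EBs, 0.835 and 1.098 at E9.0, against 3.00 and 1.85 at E8.0, and 10.3 in KO ESCs, against 48.8 in WT ESCs. That was 0.080% to 0.892% of the mt-Co1 to mt-Nd5 row. The highest single value was that of Gm13341 in WT ESCs, at 25.1 FPKM. How reads that match both a nuclear copy and the mitochondrial genome were shared out was not tested.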

How the data were processed

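Total RNA of 10 libraries was depleted of ribosomal RNA and sequenced as strand-specific paired reads. The authors trimmed adapters, used STAR 2.5.2b for alignment to GRCm38 and Cufflinks 2.2.1 for abundance. The deposited values are FPKM, 1 per row and library. No counts were used, so depth is unknown. Genes were placed by name on GENCODE M21 (GRCm38), which also gave the sequences.

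Rows were tested if 2 or more of the 8 EB and embryo libraries reached FPKM of 1 (15160, of which 794 have merged names) with limma 3.58.1 in R 4.3.3 on log2(FPKM + 1). The model had 4 groups, a variance trend, weights by material (variance 5.47 times higher in EBs than in embryos), 4 residual and 3.36 prior degrees of freedom and Benjamini-Hochberg adjustment at 0.05, two-sided. The test needed no alignments, unlike the authors' Cuffdiff. Nuclear lists used rows with a single name. All mRNA and rRNA rows, tRNAs by name, up to 4 members of lowest p per list, Tfam, Polrmt, Lrpprc, Ppargc1a and Strap could be named, while rows listed at 0 and nuclear copies were named after their values were seen. The members, lists and tests were chosen with earlier results of these data known. The fit was tested on simulated data. Alternatives changed the pseudocount, filter, scaling, variance model, libraries and replicate block. Entering the zeros of the rRNA-containing row as missing was added after the data were seen.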

Additional observations from a re-analysis of the deposited data

How the results depend on the processing

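The directions of the mt-Co1 to mt-Nd5 row and the mt-Cytb row were the same in every alternative run in all 3 comparisons, and the number of mitochondrial rows called in EBs was 0 throughout. Their unadjusted limma p in EBs did fall under 0.05 in some settings. It was 0.0270 and 0.0207 after rescaling to rows other than mitochondrial and ribosomal-RNA-like ones, where 2744 of all rows were under 0.05. With 1 variance for EBs and embryos it was 0.0188 and 0.0153, with 3941 of all rows under 0.05. With 1 variance for EBs and embryos, 1 in place of 2 rows was called lower at E9.0, and 326 rows rose and 255 fell in KO EBs, against 3 and 18 in the main test, among them 1 of the 75 nuclear subunits and 4 of the 70 ribosomal proteins, which rose. Leaving out a library gave 2 to 3 mitochondrial rows lower at E9.0 and 0 to 1 rows higher in WT EBs than in embryos. In EBs the log2 fold change of mt-Nd6 ran from -0.56 to 0.44 as libraries were left out. It was 0.14 without the first KO EB library and 0.44 without the second WT EB library. Rescaling to rows other than mitochondrial and ribosomal-RNA-like ones moved the median of all rows in EBs to -0.22 and the mt-Co1 to mt-Nd5 row to -0.82.

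The labels share replicate numbers 1 and 2 between groups without saying that they pair samples. In EBs the column headers share a prefix between the genotypes within replicate 1, and another within replicate 2. The correlation of deviations was 0.42 between KO EBs and WT EBs and -0.03 between E9.0 and E8.0. With the replicate block, mt-Nd6 passed at E9.0 (-0.68, limma adjusted p = 0.0402) and no other mitochondrial call changed. The share of each mRNA in rows with single names was not run, because mt-Nd6 is alone in having such a row. Of all alternative values computed, 381 kept their direction and side of the threshold or their size. Another 25 moved, all but 2 of them counts of nuclear subunits. Among fold changes of mitochondrial rows, 2 reversed in sign, 2 came to pass the threshold and 2 no longer passed it. The causes were not tested.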
